A study of Mus musculus with 10 samples.

Results

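Otx2, Fgf5, Pou3f1, Gbx2, Zic2, Sox3 and Foxd3 are 7 genes that mark the formative and primed states of mouse pluripotency, the states that follow the naive state of embryonic stem (ES) cells. They were chosen by name, by matching each symbol to its Ensembl gene ID among the 22713 gene IDs of the mRNA tables, and all 7 had a row in every library. Pontinf/f; CreER ES cells, derived from blastocysts and carrying floxed Pontin alleles (exon 3) and a tamoxifen-inducible Cre, gave 1 library untreated (WT ES cells) and 1 each at 3 and 4 days after 4-hydroxytamoxifen (OHT 3D and OHT 4D, Pontin-depleted ES cells). ZHBTc4 ES cells, in which tetracycline shuts off Oct4, gave 1 library at 2 days after tetracycline (Tc 2D, Oct4-depleted ES cells). ZHBTc4 ES cells without tetracycline gave 2 libraries with a pLKO control shRNA and 2 with an shRNA against the long intergenic non-coding RNA linc1253, all at 4 days after lentiviral infection, and 1 chromatin immunoprecipitation library each with antibodies against Pontin and GFP. The cells were cultured with serum and LIF, the medium in which ES cells self-renew, with or without fibroblast feeder cells (the sources do not say which for each library), and each condition rests on 1 ES cell line.

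In the embryo, pluripotent cells pass from the naive state of the inner cell mass through a formative state to the primed state of the epiblast, and the genes below are switched on, or maintained, along that path. Otx2 is a homeobox factor that directs the exit from the naive state and redirects Oct4 to new enhancers, Pou3f1 (Oct6) is a POU factor of the epiblast, and Fgf5 is a secreted growth factor that is a classical marker of the epiblast after implantation. Zic2 is a zinc finger factor, Sox3 is a close relative of Sox2, Foxd3 is a forkhead factor needed to keep the epiblast, and Gbx2 is a homeobox factor that, unlike the others, can also sustain self-renewal in the naive state. Pontin (Ruvbl1) is an ATPase of chromatin remodelling complexes, and Oct4 (Pou5f1) is the core factor of the pluripotency network.

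In NCBIM37, Otx2 lay on the minus strand at chr14:49277354-49287319, Gbx2 on the minus strand at chr1:91824537-91829865, and Sox3 on the minus strand at chrX:58144545-58146605. Fgf5 lay on the plus strand at chr5:98683203-98706049, Zic2 at chr14:122874604-122879074, and the single-exon genes Pou3f1 and Foxd3 on chromosome 4 at chr4:124334896-124337899 and chr4:99322990-99325362. The 250 bases before the annotated gene start are shown for the 5 genes that passed the level filter of both mRNA tables (Otx2, Gbx2, Zic2, Sox3 and Foxd3), because the Pontin reads described at the end were counted over these promoters, and because Gbx2 and Foxd3 moved against Otx2 after Pontin depletion. They are written 5′ to 3′ on the strand of the gene and were read from the NCBIM37 genome. Capitals mark matches, on either strand, to 6 motifs: the octamer of POU factors (ATGCAAAT), a SOX core (ACAATG), an OTX core (GGATTA), the GC box (GGGCGG), the CCAAT box (CCAAT) and a TATA core (TATAAA).
Otx2, chr14:49287320-49287569, minus strand: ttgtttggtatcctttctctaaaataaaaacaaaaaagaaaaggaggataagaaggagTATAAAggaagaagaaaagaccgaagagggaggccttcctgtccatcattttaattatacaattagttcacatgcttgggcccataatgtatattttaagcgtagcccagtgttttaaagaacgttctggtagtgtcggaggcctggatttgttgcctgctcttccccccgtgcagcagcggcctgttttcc
Gbx2, chr1:91829866-91830115, minus strand: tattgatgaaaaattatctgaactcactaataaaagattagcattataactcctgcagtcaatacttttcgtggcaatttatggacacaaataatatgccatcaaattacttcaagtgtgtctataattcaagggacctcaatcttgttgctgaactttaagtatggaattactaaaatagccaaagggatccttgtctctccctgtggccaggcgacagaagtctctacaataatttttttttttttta
Foxd3, chr4:99322740-99322989, plus strand: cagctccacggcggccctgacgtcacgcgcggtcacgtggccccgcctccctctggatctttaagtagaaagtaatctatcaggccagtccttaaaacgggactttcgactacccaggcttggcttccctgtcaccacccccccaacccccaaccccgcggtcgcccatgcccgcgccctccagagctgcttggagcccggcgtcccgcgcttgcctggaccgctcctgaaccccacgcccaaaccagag
Zic2, chr14:122874354-122874603, plus strand: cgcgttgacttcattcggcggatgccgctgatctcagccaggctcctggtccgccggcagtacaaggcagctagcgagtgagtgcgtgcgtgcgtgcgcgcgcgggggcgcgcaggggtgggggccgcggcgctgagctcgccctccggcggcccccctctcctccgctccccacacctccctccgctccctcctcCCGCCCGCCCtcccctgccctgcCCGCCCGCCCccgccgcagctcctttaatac
Sox3, chrX:58146606-58146855, minus strand: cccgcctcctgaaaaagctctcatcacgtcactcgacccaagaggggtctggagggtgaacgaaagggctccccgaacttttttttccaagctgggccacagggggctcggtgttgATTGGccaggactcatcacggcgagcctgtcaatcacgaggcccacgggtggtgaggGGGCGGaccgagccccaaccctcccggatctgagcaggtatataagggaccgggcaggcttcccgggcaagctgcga

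These stretches differed widely in base composition. The share of G and C was 33.2% before Gbx2 and 42.0% before Otx2, against 62.4% before Sox3, 65.6% before Foxd3 and 74.8% before Zic2, with a median of 54.0% over 22351 coding promoters. The GC box occurred within 250 bases of 4 of the 7 genes (Fgf5, Pou3f1, Zic2 and Sox3) and of 39.6% of all coding promoters, and its copies before Zic2 overlap in pairs. The Otx2 stretch held the TATA core, which 12.4% of promoters held, and the Sox3 stretch held a CCAAT box, which 35.0% held. The octamer occurred in none of the 7 stretches and in none of the 7 windows from 2.5 kb upstream to 500 bases downstream of the start, against 14.6% of all such windows. A match is a string of letters and not a binding site.

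The 2 mRNA tables held counts-per-million values (CPM), which were used as deposited unless stated otherwise, and each table was normalised on its own. The libraries held 17187595 to 37951742 reads on genes, so that 1 read was worth 0.0258 to 0.0461 CPM. Ruvbl1 was at 198 CPM in WT and fell to 33.3 CPM on day 3 of OHT and 50.9 CPM on day 4, and Pou5f1 was at 301 CPM in WT and 21.1 CPM at Tc 2D, so the targeted genes were lower where the labels say so. Ruvbl1 was also lower in the Oct4-depleted library than in WT, at 85.0 CPM, beside 166 and 186 CPM in the separately normalised ZHBTc4 shRNA controls. The study reports no significant difference of Pontin mRNA, by quantitative RT-PCR, or of Pontin protein after Oct4 depletion. The level of linc1253 was not analysed here. All 8 ES cell markers on the list (Pou5f1, Sox2, Nanog, Dppa5a, Dppa4, Zfp42, Lin28a and Utf1) were above 1 CPM in WT. The 12 fibroblast genes (among them Col1a1, Acta2 and Tagln) summed to 40.6 CPM in WT, 298 on day 3 of OHT, 399 on day 4 and 43.3 at Tc 2D, and to 68.1 and 69.2 CPM in the shRNA control libraries and 69.0 and 109 in linc1253-knockdown replicates 1 and 2. Only Lum of these was at 0 in WT and at OHT 3D, and none was at OHT 4D. At Tc 2D, 4 of them were at 0, and single genes went both ways although the sum was close to that in WT. Acta2 went from 5.90 CPM in WT to 0, and Pdgfrb from 0.715 to 25.1 CPM. The 4 Y-linked genes summed to 0 CPM in WT and 115 CPM at Tc 2D, 2 libraries of different cell lines.

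In WT ES cells the 7 genes spanned a wide range of levels. Per kilobase of annotated exon, Otx2 was at 6.03 CPM, Zic2 at 4.30, Foxd3 at 3.65 and Gbx2 at 2.45, while Sox3 was at 0.325 and Fgf5 at 0.214. In the 2 shRNA control libraries of ZHBTc4 cells, Foxd3 was at 11.6 and 10.3 CPM per kilobase, Zic2 at 10.2 and 8.58, Otx2 at 8.95 and 9.69, Gbx2 at 5.62 and 6.16, Sox3 at 1.45 and 1.15 and Fgf5 at 0.0738 and 0.206. Zic2 and Otx2 overlapped in these libraries, and the other neighbours in that order did not, with 2 libraries each. Fgf5 rested on 2 to 33 reads per library. Pou3f1 had 1 read each in WT and the OHT 3D library, 2 in OHT 4D and 7 in Tc 2D, and 99.97% of its exon bases were shared with a second annotated entry of the same name and strand, a pseudogene model outside the tables, so that its counts cannot be read as its level. Of the exon bases of Gbx2, 32.4% overlapped the opposite-strand gene D130058E05Rik, which was listed at 0 in all 8 libraries. The library kit does not mark strand, so the level of Gbx2 per kilobase and its place in the order above are uncertain.

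**Figure D1:**
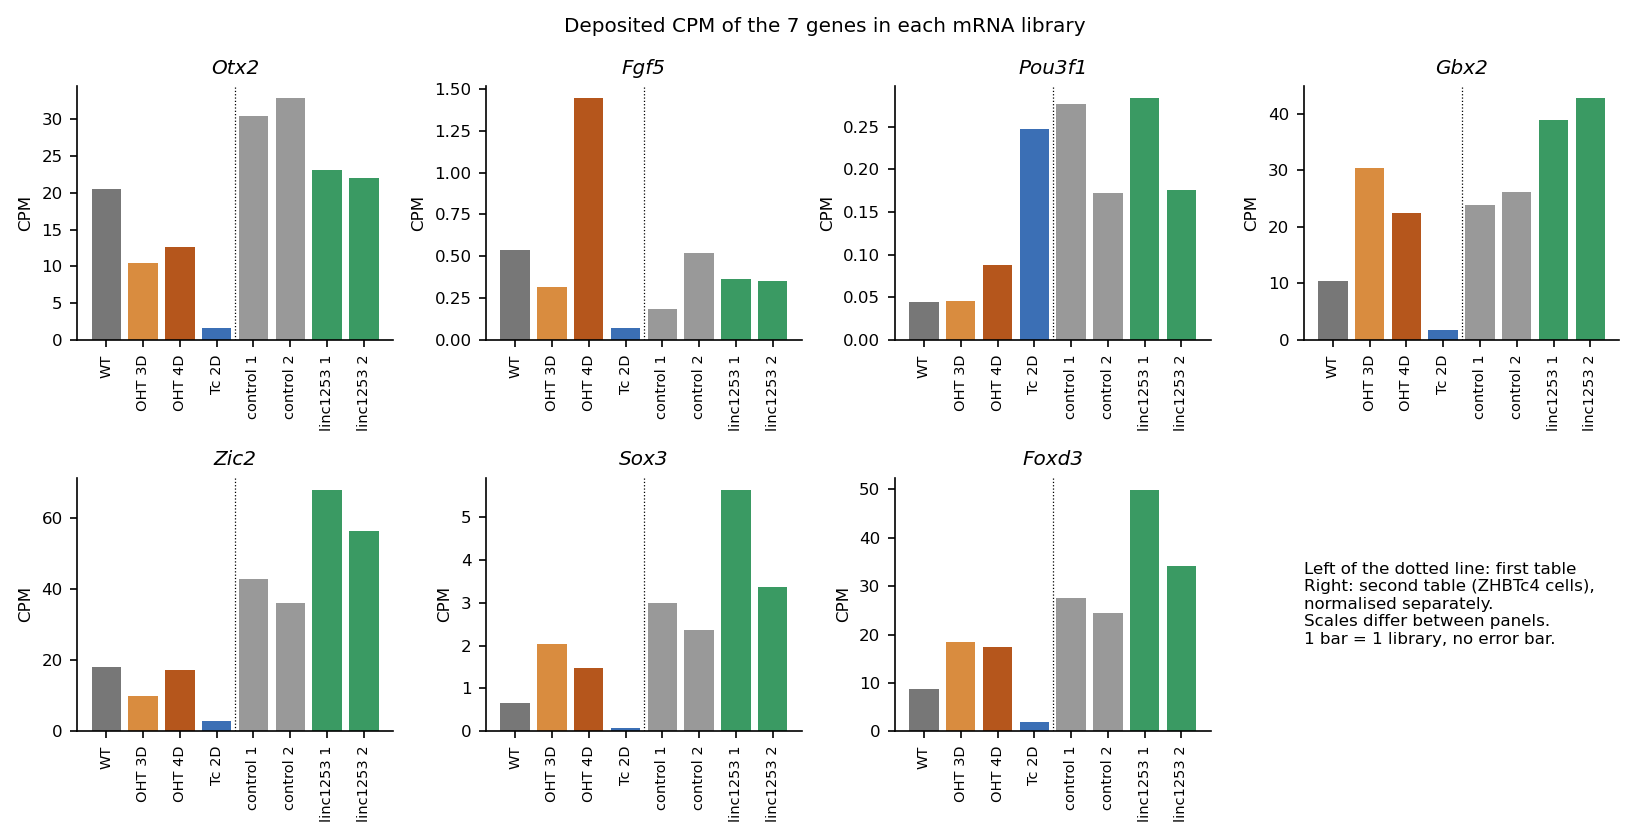
Deposited CPM (vertical axis, a separate linear scale from 0 for each gene) of the 7 genes in the 8 mRNA libraries, 1 bar per library. Otx2, Gbx2, Zic2, Sox3 and Foxd3 were lowest at Tc 2D, and Gbx2, Sox3 and Foxd3 were higher in both OHT libraries than in WT.

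To ask how loss of Pontin affected these genes, the OHT libraries were compared with WT on the log2(CPM + 1) scale, with an absolute log2-fold-change above 0.58 (1.5-fold) as a call, and with genes that reached more than 1 CPM in any of the 4 libraries of the first table. Each condition is 1 library, so there is no replicate check and no test, and the 95% intervals given cover counting error only. The genes split in direction. Gbx2, Foxd3 and Sox3 were higher in the Pontin-depleted ES cells and Otx2 was lower, while Zic2 was lower on day 3 and close to WT on day 4. In a bulk library, less RNA per cell and fewer cells of a kind cannot be told apart.

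Gbx2 was at 10.4 CPM in the WT library, then 30.4 on day 3 and 22.5 on day 4 of OHT. The log2-fold-change was 1.47 (1.27 to 1.67) on day 3 and 1.05 (0.84 to 1.26) on day 4, the largest rise among the 7 genes at either time on this scale. Without the added 1 CPM, Gbx2 was 2.94-fold and 2.17-fold its WT level, and Sox3 at both times and Fgf5 on day 4, with far fewer reads, had higher ratios. Foxd3 went from 8.67 CPM to 18.4 and 17.5 on the same days, with log2-fold-changes of 1.01 (0.78 to 1.23) and 0.93 (0.71 to 1.16). Its levels at the 2 OHT times lay close together, with a difference of −0.07 (−0.26 to 0.12) for OHT 4D minus OHT 3D. Sox3 was far lower in level, at 0.671 CPM (15 reads) before OHT, 2.04 (45 reads) on day 3 and 1.49 (34 reads) on day 4. The day 3 log2-fold-change of 0.86 (0.42 to 1.27) was a call that was lost with 3 CPM added, where it was 0.46, and that of 0.58 (0.13 to 0.99) on day 4 was just under the limit before rounding. Without the added 1 CPM, the Sox3 level was 3.04-fold (1.66 to 5.86) and 2.22-fold (1.18 to 4.39) that of WT.

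Otx2 was at 20.5 CPM before OHT, 10.45 on day 3 and 12.6 on day 4. It was thus lower in both Pontin-depleted libraries, with log2-fold-changes of −0.91 (−1.12 to −0.69) and −0.66 (−0.86 to −0.46). Zic2 was at 18.0 CPM before OHT, 9.999 on day 3 and 17.3 on day 4. Against WT this was a log2-fold-change of −0.79 (−1.01 to −0.57) and then of −0.06 (−0.25 to 0.14), and the OHT 4D library exceeded the OHT 3D library by 0.73 (0.51 to 0.96). Fgf5 was at 0.536 CPM (12 reads) before OHT, 0.317 (7 reads) on day 3 and 1.45 (33 reads) on day 4. The rise on day 4 was a call, with a log2-fold-change of 0.67 (0.23 to 1.08), that was lost with 3 CPM added, where it was 0.33, and the value at OHT 3D was −0.22 (−0.63 to 0.20), an interval that includes 0.

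**Figure D2:**
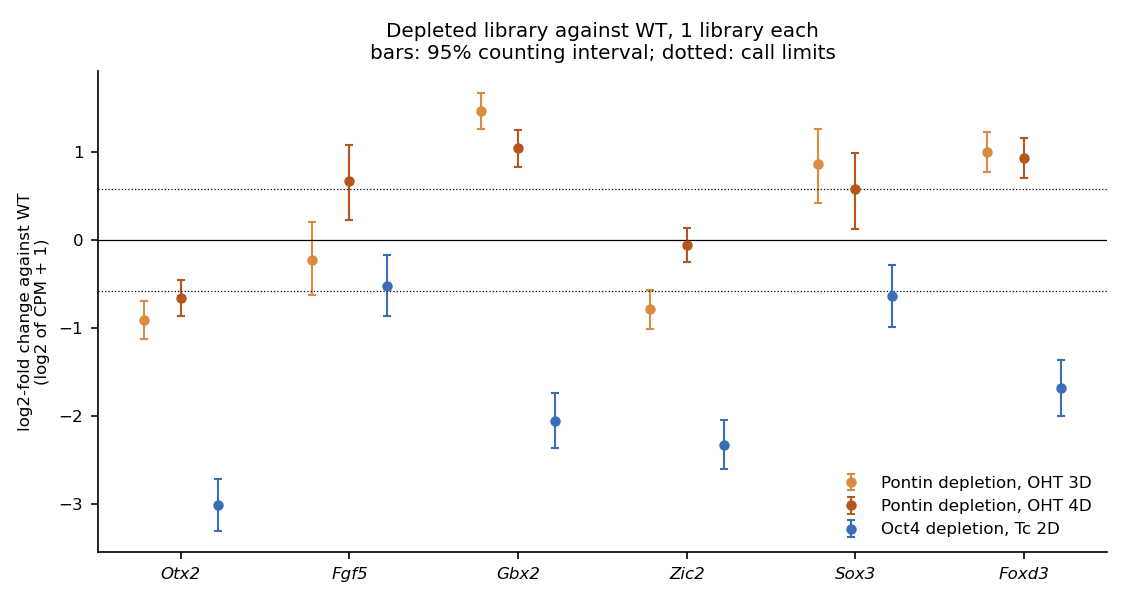
log2-fold change against WT on the log2(CPM + 1) scale (vertical axis) for the 6 genes that passed the filter, in the 2 OHT libraries and the Tc 2D library, with 95% counting intervals as bars and the call limits of 0.58 as dotted lines. Gbx2 and Foxd3 lay above the upper limit at both OHT times and below the lower limit at Tc 2D, while Otx2 lay below the lower limit in all 3 comparisons.

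Of the 7 genes, 6 passed the filter, and Fgf5 and Sox3 did so only through the OHT libraries. At OHT 3D, 3 were called up (Gbx2, Foxd3 and Sox3) and 2 down (Otx2 and Zic2), beside 6.01% of all 13449 tested genes called up and 5.88% called down. Of the 4 that passed in the WT library itself, 2 were called up and 2 down at that time. At OHT 4D, 3 were called up (Gbx2, Foxd3 and Fgf5) and 1 down (Otx2), beside 6.48% called up and 8.89% called down. Of the same 4 that passed in WT, 2 were called up and 1 down. The median log2-fold-change over the 4 genes that passed in the WT library itself (Otx2, Gbx2, Zic2 and Foxd3), which went both ways, was 0.11 at OHT 3D and 0.44 at OHT 4D, beside −0.018 and −0.0033 over all tested genes. Both OHT comparisons share the WT library, so that an unusual WT value would move both. The rise of the fibroblast genes moved with these comparisons, with 7 of the 7 that exceeded 1 CPM in WT itself called up at both times (3 others passed the filter only through treated libraries), and its part in the values of the 7 genes was not tested.

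A wider list of 18 other formative and primed genes, of which 17 passed the filter, showed no common direction. At OHT 3D, 3 were called up and 2 down, and at OHT 4D 4 were called up and 1 down, with medians of −0.07 and −0.04. Cdh2 (N-cadherin, which fibroblasts also express) rose most, from 3.84 CPM in WT to 13.0 and 11.1 CPM. Zic5, which lies next to Zic2 on the opposite strand, went from 38.3 CPM to 17.8 at OHT 3D, a call, and to 25.6 at OHT 4D, with log2-fold-changes of −1.07 and −0.56. Lef1, a transcription factor of Wnt signalling, was called down at both times, with values of −0.89 and −0.68. Etv4, an ETS factor downstream of FGF signalling, was called up at both, with values of 0.71 and 0.81. Dnmt3a and Dnmt3b, the de novo DNA methyltransferases, were not called at either time. Of the 11 naive pluripotency genes tested, none was called up and 1 down at OHT 3D, and 1 was called up and 1 down at OHT 4D, and none of the 8 ES cell markers was called at either time.

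**Figure D3:**
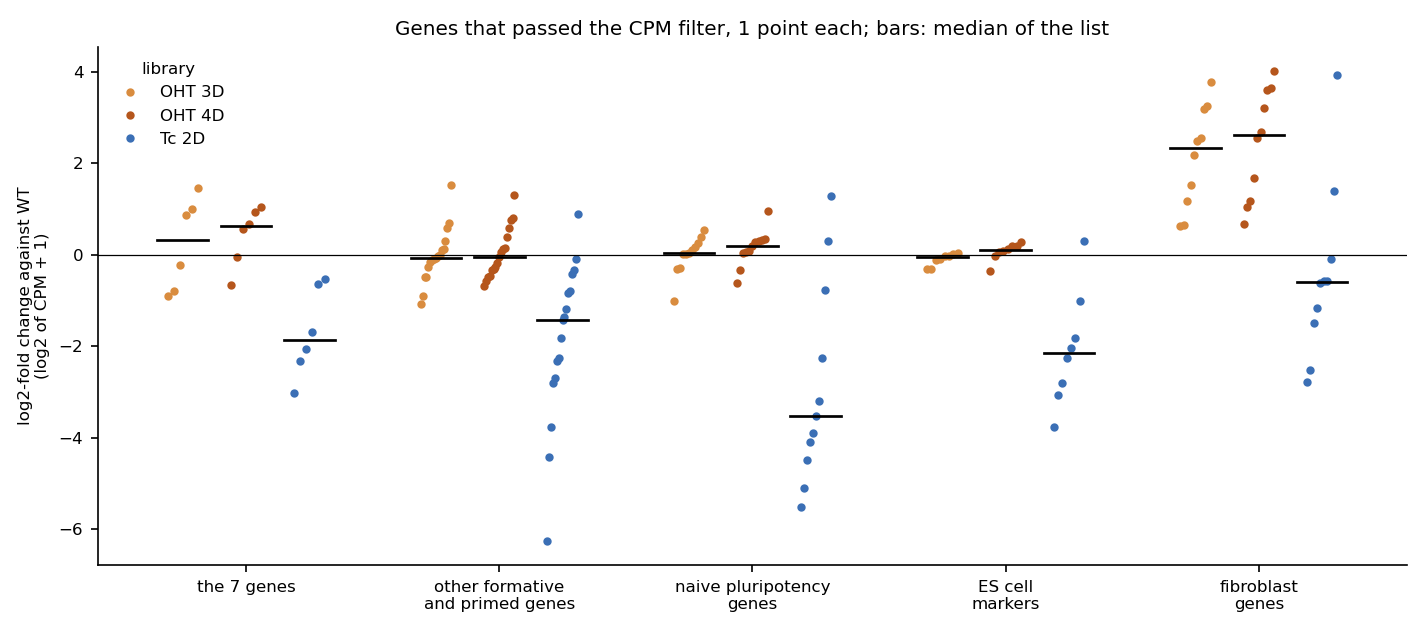
log2-fold change against WT on the log2(CPM + 1) scale (vertical axis) for each gene that passed the filter in 5 lists, for the 2 OHT libraries and the Tc 2D library, 1 point per gene, with black bars for the list medians. At Tc 2D the median was −1.87 for the 6 of the 7 genes that passed, −1.42 for the other formative and primed genes and −3.53 for the naive pluripotency genes, while the fibroblast genes had medians of 2.33 and 2.63 at OHT 3D and OHT 4D, with 3 genes among them that passed only through treated libraries.

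In the Oct4-depleted ES cells, Otx2, Zic2, Gbx2, Foxd3 and Sox3 were all lower than in WT. Otx2 fell from 20.5 to 1.66 CPM (458 and 47 reads), a 12.4-fold lower level and a log2-fold-change of −3.02 (−3.30 to −2.72). Zic2 fell from 18.0 to 2.78 CPM, with a log2-fold-change of −2.33 (−2.60 to −2.05). Gbx2 and Foxd3, which were higher in the Pontin-depleted ES cells, were lower here. Gbx2 fell from 10.4 to 1.73 CPM, with a log2-fold-change of −2.06 (−2.37 to −1.74), and Foxd3 from 8.67 to 2.01 CPM, with a log2-fold-change of −1.68 (−1.999 to −1.36). Sox3 had 2 reads at Tc 2D against 15 in WT, a ratio of CPM of 0.105 (0.0117 to 0.452), and its log2-fold-change of −0.64 was a call that was lost with 3 CPM added, where it was −0.26. Fgf5 also had 2 reads, against 12 in WT, a ratio of 0.131 (0.0143 to 0.590), and was not called, with a log2-fold-change of −0.52.

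In all, 0 of the 7 genes were called up and 5 were called down at Tc 2D, beside 23.9% of all tested genes called up and 25.8% called down. Of the 4 that passed in WT itself, 4 were called down, with a median of −2.19 beside −0.06 over all tested genes. The WT library comes from the other cell line, so that line and Oct4 depletion cannot be told apart in this comparison. The shRNA control libraries, which are of ZHBTc4 cells, had higher levels of the 5 genes than WT, by 0.60 for Otx2 and 1.08 to 1.48 for Zic2, Sox3, Gbx2 and Foxd3 on the log2(CPM + 1) scale, beside a median over all tested genes of 0.14 between these separately normalised tables. Against the mean of these 2 libraries, the log2-fold-change at Tc 2D was −3.62 for Otx2, −3.41 for Zic2, −3.25 for Gbx2, −3.16 for Foxd3 and −1.78 for Sox3. All 5 were called down, beside 30.7% of 13586 tested genes, with a median over all of these of −0.17. With all 8 libraries on a common median-ratio scale that median was 0.00, and the same 5 values were −3.47, −3.25, −3.11, −3.01 and −1.71. The shRNA controls had been infected and selected and were sequenced in the other table, so that infection, sequencing run and Oct4 depletion cannot be told apart there.

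The other formative and primed genes were mostly lower at Tc 2D as well, with 13 of 17 called down and 1 called up. Among the genes that fell most were Tdgf1 (Cripto, the Nodal co-receptor), from 678 to 7.79 CPM, and Lef1, from 13.6 to 0.0705 CPM (2 reads). Zic5, the neighbour of Zic2, had a log2-fold-change of −2.26, beside −2.33 for Zic2. Cdh2 was the gene called up, from 3.84 to 8.04 CPM. Dnmt3b, at 271 CPM in WT and 216 at Tc 2D, and Sox11, at 15.6 and 14.6 CPM, were not called. Of the 11 naive pluripotency genes, 9 were called down and 1 up, with a median of −3.53, and 7 of the 8 ES cell markers were called down. Of the trophectoderm genes, among which Oct4 is known to repress Cdx2, a call up was made for 6 of the 6 that exceeded 1 CPM in WT itself (3 others passed the filter only through treated libraries), and the summed level of the list went from 60.0 to 487 CPM. These counts stand beside 25.8% called down and 23.9% called up of all tested genes, and they rest on the WT library of the other line. Against the ZHBTc4 shRNA control libraries, 14 of the 17 other formative and primed genes, 10 of the 11 naive genes and 8 of the 8 ES cell markers were called down, beside 30.7% of all tested genes. Tbx3, the naive gene called up against WT (90.6 to 221 CPM), was at 239 and 181 CPM in those controls.

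To ask whether linc1253 affected these genes, the 2 knockdown libraries were compared with the 2 shRNA control libraries by limma with trend on log2(CPM + 1), with 2-sided p-values adjusted by Benjamini-Hochberg over the 13407 genes that exceeded 1 CPM in any of the 4 libraries. Otx2, Gbx2, Zic2, Sox3 and Foxd3 lay outside the range of the controls in both knockdown libraries. Otx2 was lower, and Gbx2, Zic2, Sox3 and Foxd3 were higher. None of these differences passed the adjusted threshold of 0.05 in this fit.

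Otx2 was at 30.4 and 32.9 CPM in the control libraries and 23.2 and 21.97 in the knockdown libraries, with a log2-fold-change of −0.47 (SE 0.11, limma adjusted p = 0.528). Gbx2 was at 23.8 and 26.1 CPM in the controls and 38.9 and 42.8 after knockdown. Its log2-fold-change was 0.69 (SE 0.11, limma adjusted p = 0.469), the largest of the 5 relative to its error. Zic2 was at 42.7 and 35.9 CPM in the controls and 67.9 and 56.1 after knockdown, with a log2-fold-change of 0.64 (SE 0.14, limma adjusted p = 0.510). Foxd3 was at 27.5 and 24.4 CPM in the controls and 49.9 and 34.2 after knockdown, with a log2-fold-change of 0.65 (SE 0.19, limma adjusted p = 0.573). The knockdown libraries of Foxd3 were far apart, with an SD of 11.1 CPM around a mean of 42.1 CPM against 2.20 around 26.0 CPM in the controls (n = 2 each). Sox3 was at 3.00 and 2.37 CPM in the controls and 5.64 and 3.38 after knockdown, with a log2-fold-change of 0.56 (SE 0.23, limma adjusted p = 0.669). The values of Sox3 and Foxd3 depended on knockdown replicate 1, without which they were 0.25 and 0.39, and on replicate 2, without which Sox3 was at 0.86. Fgf5 (4 and 12 reads in the controls, 14 and 8 after knockdown) and Pou3f1 did not pass the filter, and their libraries overlapped.

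**Figure D4:**
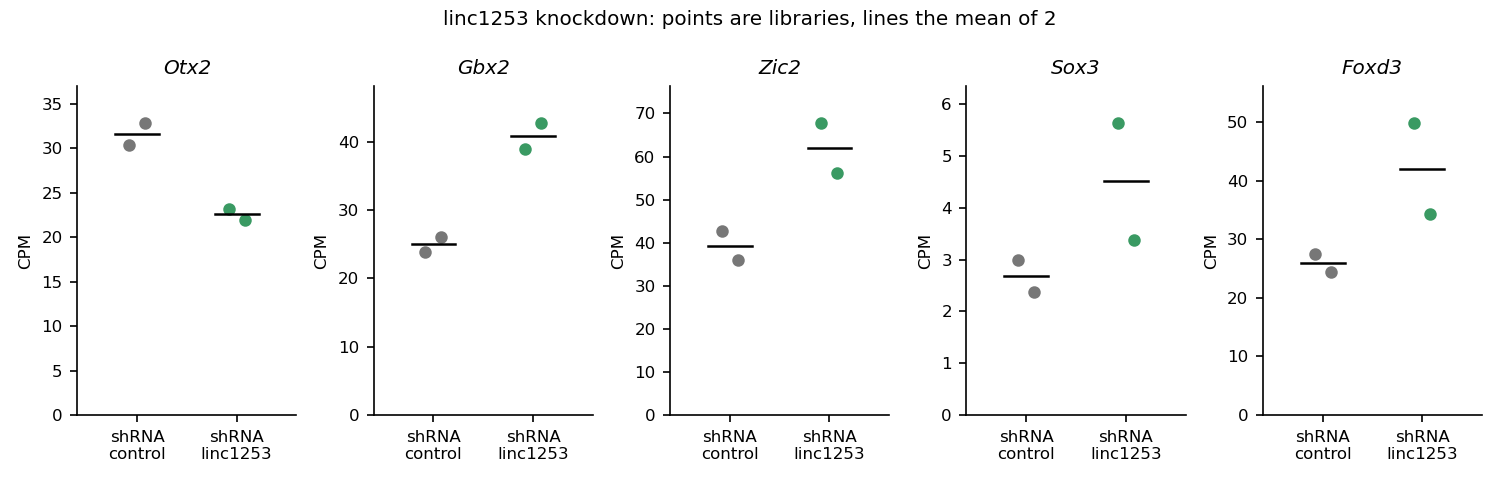
CPM (vertical axis, from 0) of Otx2, Gbx2, Zic2, Sox3 and Foxd3 in the 2 shRNA control and the 2 shRNA linc1253 libraries, with points for libraries and lines for the mean of 2. The 2 groups do not overlap for any of the 5 genes, with Otx2 at 21.97 to 23.2 CPM after knockdown against 30.4 to 32.9 in the controls, and Gbx2 at 38.9 to 42.8 against 23.8 to 26.1.

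Of the 5 genes tested, 4 had both knockdown libraries above both controls and 1 had both below, beside 18.8% and 19.2% of all tested genes. The limma adjusted threshold called 0 of the 5 genes and 0.0% of all 13407, the smallest adjusted p over all genes being 0.265. At an unadjusted limma p of 0.05, 3 of the 5 genes were up (Gbx2, Zic2 and Foxd3) and 1 was down (Otx2), beside 3.7% and 3.75% of all tested genes (496 and 503 genes). On the reads recovered from the CPM, the edgeR quasi-likelihood test called 0 genes, with 497 up and 513 down at its unadjusted p of 0.05. DESeq2 and the exact test of edgeR called Gbx2 and Zic2 up, beside 0.172% and 0.283% of all tested genes. The adjusted p was 0.00772 for Gbx2 and 0.0262 for Zic2 with DESeq2, and 0.00124 and 0.0178 with the edgeR exact test, beside 0.469 and 0.510 with limma. Limma with the replicate number as a block gave 1.91e-06 and 1.06e-06. That fit called 4 of the 5 genes up and 1 down, beside 933 and 1027 of all 13407 genes. No source says that a replicate number marks a shared culture, batch or day. The sources do not say whether the 2 libraries of a group came from separate cultures, so that p-values measure the spread between these libraries, which may be technical. The fibroblast genes summed to 69.0 CPM in knockdown replicate 1 and 109 in replicate 2, beside 68.1 and 69.2 CPM in the controls. Single genes on that list differed between replicates in both groups. Acta2 was at 0.277 and 3.31 CPM in control replicates 1 and 2 and 0.180 and 17.7 after knockdown. Thy1 went the other way, at 33.5 and 27.4 CPM in the controls and 33.6 and 26.9 after knockdown. The part of the fibroblast genes in the differences of the 5 genes was not tested.

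Of the 17 other formative and primed genes tested, 3 had both knockdown libraries above both controls and none had both below, beside 18.8% and 19.2% of all tested genes. The median log2-fold-change of the list was 0.07, beside −0.0011 over all tested genes. Whether the list differed from the genes above was not tested. Nodal, the TGF-beta family ligand that maintains the epiblast, was at 42.5 and 44.6 CPM in the controls and 62.9 and 52.9 after knockdown (limma adjusted p = 0.573). Zic5, next to Zic2, overlapped between the groups, at 47.4 and 45.8 CPM in the controls and 54.9 and 44.7 after knockdown. Of the 11 naive pluripotency genes, 3 lay above both controls and 1 (Fgf4, at 181 and 182 CPM against 236 and 227) below, beside 18.8% and 19.2% of all tested genes.

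Side by side, the log2-fold-changes on day 3 and day 4 of OHT, after Oct4 depletion and after linc1253 knockdown were −0.91, −0.66, −3.02 and −0.47 for Otx2 and 1.47, 1.05, −2.06 and 0.69 for Gbx2. They were 1.01, 0.93, −1.68 and 0.65 for Foxd3, and 0.86, 0.58, −0.64 and 0.56 for Sox3. For Zic2 they were −0.79, −0.06, −2.33 and 0.64. The third value of each is against WT of the other line, and against the ZHBTc4 controls it was larger in size, at −3.16 for Foxd3 and −1.78 for Sox3. Otx2 was thus lower in all 4 comparisons, and Gbx2 and Foxd3 were higher in all but that at Tc 2D. The values of Sox3 had the same signs as those of Gbx2 and Foxd3 but rested on less. Sox3 had 15 reads in WT and passed the filter of the first table only through the OHT libraries. Its day 3 call was lost with 3 CPM added, and its day 4 value was not a call. Without knockdown replicate 1, its knockdown value was 0.25. The first 3 comparisons share the WT library, and the knockdown values did not pass the adjusted threshold in the limma fit described above.

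To describe which genes varied most like each of the 7 over the 8 libraries, all 8 were put on a common median-ratio scale. The root mean square difference of log2(CPM + 1) was then computed after centring each gene. The search covered 10429 genes with a mean of at least 5 CPM. The genes closest to Foxd3 were Accsl, Vegfc and Tnfrsf8, with differences of 0.19, 0.22 and 0.23, beside a spread of Foxd3 itself of 1.14. The genes closest to Gbx2 were Accsl (0.30), Foxd3 itself (0.32) and Tnfrsf8 (0.36), while Gbx2 was not among the 3 genes closest to Foxd3. The genes closest to Otx2 were Mcf2 (0.23), Ldha (0.24) and Dnmt3l (0.26), beside a spread of 1.07, and those closest to Zic2 were Spp1 (0.30), Apod (0.32) and Nanog (0.36). For Sox3 they were Tex19.1 (0.22), Smyd1 (0.22) and Fjx1 (0.23). Fgf5 and Pou3f1 had spreads of 0.35 and 0.11, so their closest genes are those that varied little (Mpdu1 and Cars2 were the first of each). The 8 libraries share cell lines, tables and the depleted conditions, and likeness here is a description of these libraries.

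To ask whether Pontin was found at these promoters, reads of the Pontin and GFP immunoprecipitations were counted from 2.5 kb upstream to 500 bases downstream of the gene start and scaled by library size. The files held 40729076 Pontin and 17185883 GFP reads, 1 library each, with both mates of a pair as separate reads. The 7 promoters had few reads, 56 to 113 for Pontin and 15 to 29 for GFP. Over this window no enrichment beyond counting error was detectable at any of the 7 at this depth. Their ratios lay in the range of other promoters.

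Zic2 had the most Pontin reads, 113 against 29 for GFP, or 2.77 against 1.69 on a reads-per-million scale (RPM). Its log2 ratio of Pontin over GFP was 0.72. The ratio was 1.095 at Fgf5, 0.66 at Sox3, 0.54 at Pou3f1, 0.50 at Foxd3, 0.43 at Otx2 and 0.30 at Gbx2. Fgf5, the highest, had 81 Pontin and 16 GFP reads and lay above 88.6% of coding promoters, and Gbx2, the lowest, lay above 47.8%. Counted as fragments, with the mates of a pair counted once, the ratio was 0.98 at Fgf5 with a 95% exact interval of −0.08 to 2.20, and 0.38 (−0.56 to 1.40) at Gbx2. The intervals of all 7 promoters included both 0 and the median of all promoters. Otx2 has 7 annotated coding transcript starts, whose ratios ranged from 0.22 to 1.24, the highest on 95 Pontin and 17 GFP reads. No interval was computed for starts other than the gene start. The study reports Pontin at an Oct4-binding region of Otx2 from immunoprecipitation with quantitative PCR in ZHBTc4 cells, and that region was not located here.

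**Figure D5:**
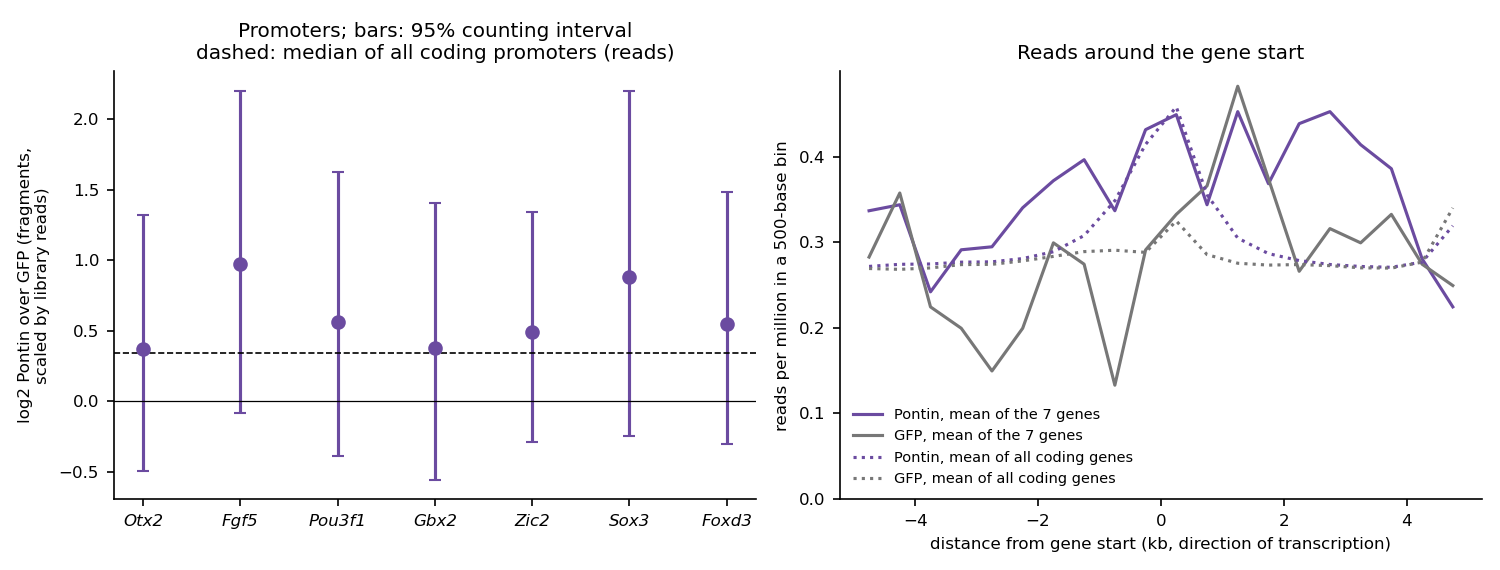
Left, log2 ratio of Pontin over GFP fragments at the 7 promoters (vertical axis) with 95% exact counting intervals, beside the median over all coding promoters (dashed, 0.34, from reads). Right, RPM in bins of 500 bases (vertical axis) by distance from the gene start in kb (horizontal axis), as the mean of the 7 genes (solid) and of 22367 coding genes (dotted). The mean over all coding genes peaked at the start in the Pontin library, at 0.458 RPM, beside 0.325 RPM in the same bin of the GFP library. The 7 genes varied between bins by as much in the GFP library as in the Pontin library.

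The median log2 ratio over the 7 promoters was 0.54, beside 0.34 over 21193 coding promoters with reads in both libraries. A ratio above 1 was found at 1 of the 7 promoters (Fgf5), beside 14.4% of all promoters. Over promoters of coding genes above 1 CPM in the shRNA controls the median was 0.45, and over the others it was 0.13. With windows of 1 kb on either side of the start, the median of the 7 was 0.34 and that of all promoters 0.51, so that the order of the 2 medians turned. With these windows 2 of the 7 lay above the median of all promoters, against 6 with the main window. The ratio at Sox3 went from 0.66 to −0.10, and that at Foxd3 from 0.50 to 0.08. Those at Zic2, Otx2 and Gbx2 fell to 0.45, 0.34 and 0.19, while Fgf5 rose to 1.15 and Pou3f1 to 0.66. Counting intervals were not computed for these windows. Scaled by the median ratio over promoters, the ratio at Gbx2 was −0.04, and that of the other 6 stayed above 0.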

How the data were processed

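For the mRNA libraries (poly(A), unstranded kit), adapter-trimmed reads were placed on NCBIM37 by TopHat, summed per gene by HTSeq and scaled by TMM in edgeR, and the authors deposited the values as CPM in 2 tables. Dividing the CPM of a library by its smallest value above 0 gave whole reads, within 0.01 read, for 100% of values. ChIP reads were aligned with Bowtie2, and the deposited files hold a line for each read, and their score column (mapping quality) was not used. Upstream versions are not given in the sources used here.

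The 7 genes and all lists were chosen with earlier results of these data known. Lists name up to 4 genes of largest change, and others singled out by role were chosen after their values were seen. The values of 1 listed gene are not reported here. Gene models were those of GENCODE for NCBIM37. A CPM above 1 in at least 1 of the 4 libraries of a table and a pseudocount of 1 were used throughout. Counting intervals are Poisson (Garwood limits combined for differences, exact conditional limits for ratios) at 95%, and say nothing of other error, because the reads carry no molecular identifiers and can repeat a molecule. The study's combined test for linc1253 was replaced by limma 3.58.1, with edgeR 4.0.16 and DESeq2 1.42.0 on recovered reads as alternatives (R 4.3.3). Promoters and sequence used Python 3.11.15 with numpy 2.4.6, pandas 2.3.3 and scipy 1.17.1. Scripts were tested on simulated data. Alternatives were the pseudocount, filter, scaling, fold limit, control, test, replicate block, left-out libraries, windows and duplicate reads.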

Additional observations from a re-analysis of the deposited data

Results flagged for a closer look

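Fgf5 had values of opposite sign at the 2 times after OHT, of which that on day 3 had a counting interval that included 0. Its log2-fold-change against WT was −0.22 at OHT 3D and 0.67 at OHT 4D, on 12 reads before OHT, 7 on day 3 and 33 on day 4. With 1 library per time the difference between the times was not tested.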

How the results depend on the processing

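In the depletion comparisons no value for the 6 genes that passed the filter changed sign under any alternative run. A pseudocount of 3 or a filter of 5 CPM took the genes called up from 3 to 2 at both OHT times, losing Sox3 at OHT 3D and Fgf5 at OHT 4D, and a pseudocount of 0.5 gave 4 at OHT 4D. With a limit of 1 in place of 0.58, the genes called down at OHT 3D went from 2 to 0, those called up at OHT 4D from 3 to 1, and those called down at OHT 4D from 1 to 0. At Tc 2D the genes called down went from 5 to 4 with a pseudocount of 3, a filter of 5 CPM or a limit of 1, to 6 with a pseudocount of 0.5, and stayed at 5 under the other alternatives. The share of all tested genes called with these other pseudocounts, filters and limits was not computed. These counts therefore cannot be set beside it. After linc1253 knockdown, the 5 genes kept their direction under every fit. An unadjusted limma p of 0.05 with the fold limit of the study called 3 up and 1 down. The share of all tested genes with that fold limit was not computed. DESeq2 and the edgeR exact test each called 2 up, beside 0.172% and 0.283% of all tested genes. Leaving out each library in turn called 0 of the 5 in either direction, with log2-fold-changes of 0.39 to 0.92 for Foxd3, 0.25 to 0.86 for Sox3, 0.62 to 0.75 for Gbx2, 0.51 to 0.78 for Zic2 and −0.52 to −0.41 for Otx2, and a lone library was assumed to vary like the other group. With the replicate number as a block, 4 were up and 1 down, beside 933 and 1027 of all 13407 genes. Same-numbered libraries deviated together (r = 0.67 across genes, which are not independent replicates), but 2 pairs share only a number, and the cause was not tested. For Pontin, 2 of the 7 promoters had a log2 ratio above 1 with 1 read per position and strand, beside 11.4% of all promoters. With median-ratio scaling 0 of the 7 did, beside 5.93% of all promoters. The median ratio over the 7 promoters ranged from 0.20 to 0.66 over its alternatives, of which counting fragments was added after seeing the data. Depth limits Fgf5, Sox3 at Tc 2D and the promoter ratios, and the exon bases shared with a second annotated entry limit the counts of Pou3f1.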

Other observations

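Primitive streak and neuroectoderm genes, which later epiblast derivatives express, were mostly low. Of the 7 primitive streak genes in the tables, 3 passed the filter in the first table, and their list summed to 8.81 CPM before treatment, 7.65 on day 3 of OHT and 13.4 on day 4. Of the 7 neuroectoderm genes, 3 passed, and the list summed to 41.7, 40.9 and 67.6 CPM in the same order, with Nes alone at 29.5 CPM before treatment and 55.2 on day 4. At Tc 2D the primitive streak list summed to 46.0 CPM, beside 10.1 and 9.55 CPM in the ZHBTc4 shRNA controls. Of that list only Eomes, which is also on the trophectoderm list, passed the filter of this comparison. Eomes was at 8.21 and 7.87 CPM in the controls, with a log2-fold-change of 2.32 at Tc 2D. The neuroectoderm list summed to 21.0 CPM at Tc 2D, beside 26.2 and 30.4 CPM in those controls. Of the 7 primitive endoderm genes that exceeded 1 CPM before treatment, 3 were called up on day 3 of OHT and 5 on day 4, beside 6.01% and 6.48% of all tested genes. Of the 6 such trophectoderm genes, 2 were called up and 1 down on day 3, beside 6.01% and 5.88%, and 4 were called up on day 4, beside 6.48%. The fibroblast genes rose in the same libraries, from 40.6 CPM to 298 and 399, and their part in these counts was not tested. After linc1253 knockdown, limma called none of the genes on these lists at an adjusted p of 0.05. It called none of all 13407 tested genes either, so this fit cannot tell these lists from other genes.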
